A study of Mus musculus with 4 samples.

Results

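MEL cells are a mouse erythroleukemia line arrested at an early erythroid stage, and dimethyl sulfoxide (DMSO) in the medium induces erythroid-like differentiation. The genes described here encode RNA polymerases I, II and III and some of their dedicated factors. They were taken by symbol: every Polr1, Polr2 and Polr3 gene, together with Tcof1, Mybbp1a, Ubtf, Rrn3, Taf1a, Taf1b, Taf1c, Taf1d, Znrd1, Twistnb, Cd3eap, Brf1, Brf2 and Gtf3a. This gave 42 genes of 47935 loci in the table, of which 39 had a locus of their own and 3 (Taf1d, Polr2m and Brf2) shared a locus with other genes and were left out of counts and medians. RNA-seq after removal of ribosomal RNA covered 2 DMSO-induced samples, grown with 1.5% DMSO, and 2 uninduced samples of the same line. The labels give neither the duration of exposure nor the sequencing depth. They do not say that replicates were separate cultures, so each p-value reflects the variation among these 4 samples alone, and that may be technical. As a model, the data hold 1 established cell line.

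RNA polymerase I transcribes the ribosomal RNA precursor in the nucleolus. RNA polymerase II makes messenger RNAs and most small nuclear and nucleolar RNAs, and RNA polymerase III makes transfer RNAs, 5S ribosomal RNA and other short RNAs. Each enzyme has a largest and a second-largest subunit that together form the active site. A set of small subunits is built into all 3 enzymes, and another pair, Polr1c and Polr1d, is shared by polymerases I and III. Output of polymerases I and III rises with cell growth and proliferation, and erythroid precursors lower ribosome production as they mature.

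Levels are FPKM, the fragments per kilobase of transcript scaled to each library's mapped fragments, and changes are log2 fold changes of FPKM + 1 (± SE) in DMSO-induced over uninduced samples, which understate changes of low genes. A gene was called changed when its Benjamini-Hochberg adjusted p in limma, taken over the 12890 loci tested, was under 0.05. Summed FPKM was 1246536 and 1100517 in the DMSO-induced samples, against 1055861 and 1325806 in the uninduced ones. FPKM is relative within a library, so fewer cells of a type and less RNA per cell cannot be told apart. Of 12 genes listed as erythroid markers, 11 reached 1 FPKM in every sample, 8 rose and 1 fell. The gene that fell was Spi1, at 28.1 and 33.6 FPKM in induced samples, against 101 and 115 FPKM in uninduced samples. It is on that list but encodes PU.1, a myeloid and lymphoid factor, so its fall is not that of an erythroid marker. The summed level of the 12 genes was 59451 and 113068 FPKM in induced samples, against 1617 and 1930 FPKM in uninduced samples. In induced samples most of it came from Hba-a1 (40301 and 67689 FPKM) and Hbb-bs (15800 and 39767 FPKM). Lymphocyte markers summed to 0.47 to 0.85 FPKM, fibroblast markers to 0.05 to 0.19 FPKM and macrophage markers to 1.17 to 7.66 FPKM. In the last list Adgre1, Mrc1 and Marco were at or near 0 and 1 gene, Cd68, was tested and fell. Megakaryocyte markers summed to 112 and 145 FPKM in induced samples, against 202 and 334 FPKM in uninduced samples, nearly all from Pf4. None of the 3 tested was called: Pf4 had a log2 change of -1.07, and Gp9 and Gp1ba had 0.68 and 0.46. The part that these marker shifts have in the results below was not tested.

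All 39 genes with a locus of their own passed the filter of at least 1 FPKM in at least 2 samples. Of these, 14 fell after induction and none rose, where 14.7% of all loci tested fell and 11.5% rose (26.2% in either direction). Among protein-coding loci with 1 symbol the shares were 13.7% and 11.2% (25.0% in either direction). At an unadjusted p under 0.05 limma had 16 of the 39 genes lower and 1 higher, Polr3gl. The share of all loci at that looser threshold is not given here, so these counts have no background beside them. The 14 comprised 4 of the 6 subunits particular to polymerase I, 4 of the 10 particular to polymerase III, 3 of the 5 common to all enzymes, 2 of 7 polymerase I factors and 1 of 2 polymerase III factors. None of the 7 subunits particular to polymerase II was called, and none had an unadjusted p under 0.05 in limma. The median log2 fold change was -1.49 for polymerase I subunits, -0.21 for polymerase II subunits and -0.50 for polymerase III subunits, beside 0.03 for all loci tested. Both induced values lay under both uninduced values for 27 of the 39 genes (69.2%, where 34.7% of all loci tested and 34.1% of protein-coding ones did), and above both for 3 (where 36.1% and 38.2% did). Most of these calls were lost when any 1 sample was left out, although all 14 changes stayed negative. Calls over all loci were also far fewer in those fits, which leave 1 sample in a group. None of the 14 was called when loci under the filter were kept in the fit (limma adjusted p 0.0838 to 0.277). In that fit 220 loci were called over the whole table, in place of 3377.

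**Figure D1:**
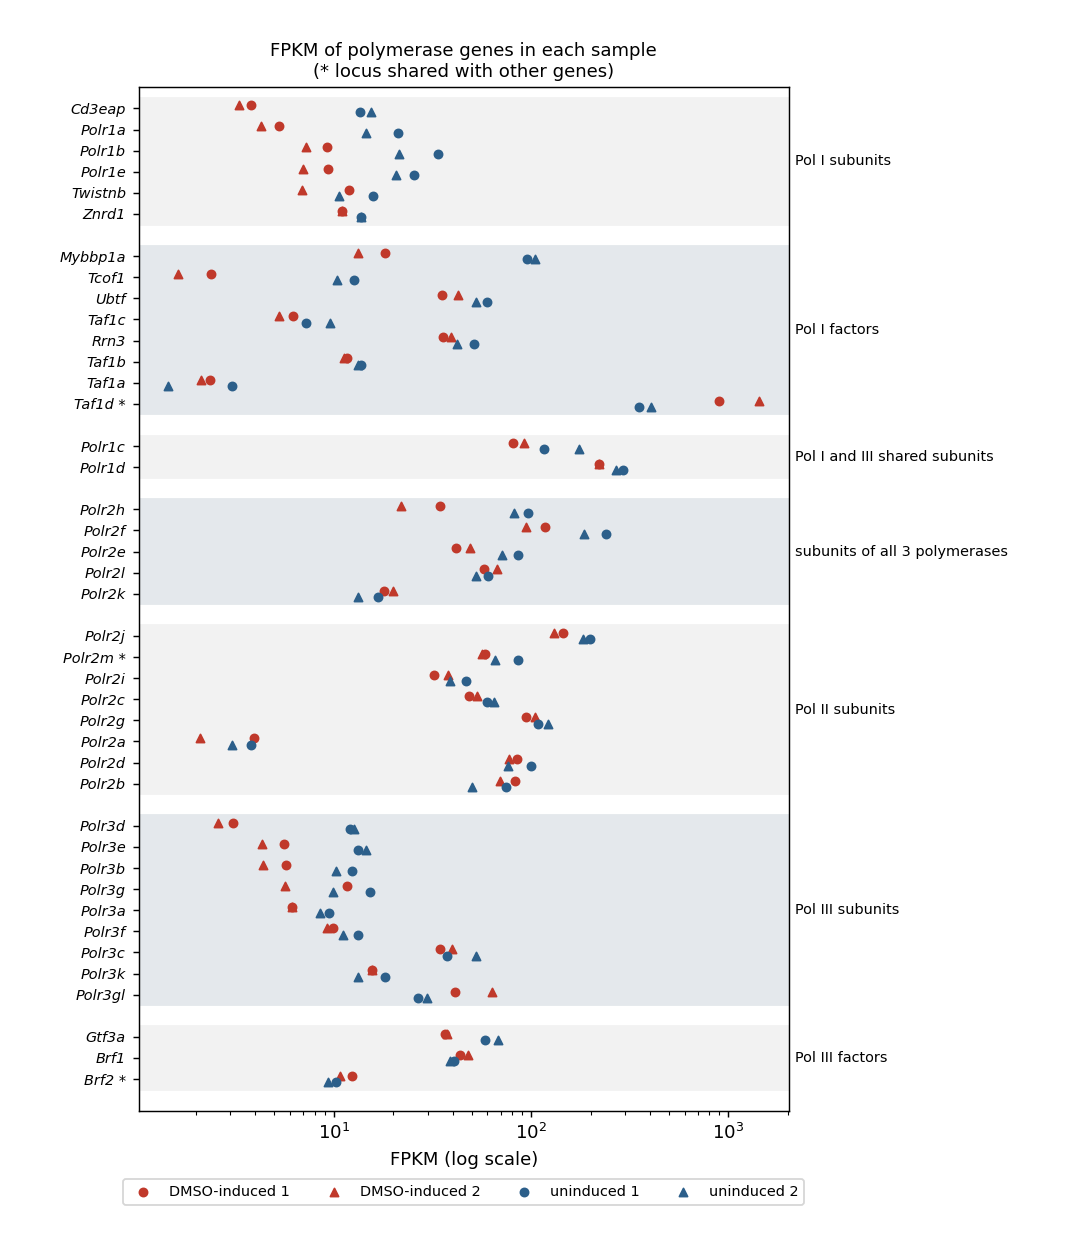
FPKM of each gene reported here in each sample on a log axis, with DMSO-induced samples in red, uninduced samples in blue, replicate 1 as circles and replicate 2 as triangles. Cd3eap, Polr1a, Polr1b and Polr1e lie under 10 FPKM in both induced samples and above 13 FPKM in both uninduced samples, whereas the points of most polymerase II genes lie close together.

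The promoters of falling genes are shown first. These genes were grouped because each was called lower, and whether they share a regulator was not tested. RefSeq windows of 300 bases (250 before to 50 after the start site, GRCm38.p6) were found for 33 of the 42 genes. The E-box CACGTG, the letters bound by MYC-MAX and other bHLH proteins, reads the same on both strands and was the first motif searched. The 4 windows of falling genes that hold it, Mybbp1a (chr11:72441077-72441376, plus strand), Cd3eap (chr7:19359434-19359733, minus strand), Polr3e (chr7:120917528-120917827, plus strand) and Polr2h (chr16:20717576-20717875, plus strand, 1 of its 2 windows), are given below. Each reads 5′ to 3′ on the gene's strand, with E-boxes in capitals.
Mybbp1a: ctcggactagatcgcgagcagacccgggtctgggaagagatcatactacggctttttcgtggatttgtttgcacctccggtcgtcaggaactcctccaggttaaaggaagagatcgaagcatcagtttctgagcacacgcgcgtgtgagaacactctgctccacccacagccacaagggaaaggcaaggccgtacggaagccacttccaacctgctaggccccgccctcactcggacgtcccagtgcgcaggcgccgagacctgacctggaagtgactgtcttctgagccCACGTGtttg
Cd3eap: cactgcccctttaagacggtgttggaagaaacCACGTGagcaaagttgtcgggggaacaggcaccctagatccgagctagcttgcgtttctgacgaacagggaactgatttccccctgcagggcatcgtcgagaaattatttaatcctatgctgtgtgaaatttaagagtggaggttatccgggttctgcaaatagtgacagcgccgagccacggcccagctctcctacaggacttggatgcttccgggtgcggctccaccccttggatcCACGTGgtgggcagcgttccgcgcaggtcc
Polr3e: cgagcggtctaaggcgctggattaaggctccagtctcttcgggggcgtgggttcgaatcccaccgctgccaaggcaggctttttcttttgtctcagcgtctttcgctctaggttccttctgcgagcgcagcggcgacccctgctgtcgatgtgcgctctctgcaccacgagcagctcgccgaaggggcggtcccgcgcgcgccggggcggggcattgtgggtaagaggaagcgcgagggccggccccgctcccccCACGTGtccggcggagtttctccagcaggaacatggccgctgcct
Polr2h: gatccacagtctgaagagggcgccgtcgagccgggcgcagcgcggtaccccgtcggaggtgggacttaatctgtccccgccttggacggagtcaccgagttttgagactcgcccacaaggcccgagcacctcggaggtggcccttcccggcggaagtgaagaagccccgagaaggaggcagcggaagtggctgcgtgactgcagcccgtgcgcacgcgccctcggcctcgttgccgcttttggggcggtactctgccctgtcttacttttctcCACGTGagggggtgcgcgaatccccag

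An E-box was present in 4 of the 11 falling genes with a window (36.4%) and in 3 of the 20 genes not called (15%). The share was 12.2% of 7204 genes with a tested locus of their own, 16% of those that fell and 8.09% of all 27025 genes in the promoter table. In the falling genes an E-box began after the start site, at base 6 in Polr3e, 21 in Cd3eap, 24 in Polr2h and 41 in Mybbp1a, and Cd3eap had another 218 bases before the start. Of the genes not called, Rrn3 had its matches 215 and 48 bases before the start and Polr3c 237 bases before it. An E-box beginning after the start site occurred in 1.94% of genes with a tested locus and 4.26% of those that fell. That split by side was made after the positions were seen and is a description only. The ETS letters CCGGAAG, searched on both strands, were in 5 of 11 falling genes (45.5%) and 8 of 20 not called (40%), where 22.6% of genes with a tested locus had them. The GC box GGGCGG was in 63.6% and 60% of these groups, where 71.4% of genes with a tested locus had it. The letters CCAAT were in 1 of 11 falling genes (9.09%) and 9 of 20 not called (45%), where 43.9% of genes with a tested locus had them. A match is a description of letters and does not show binding.

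Of the 6 subunits particular to polymerase I, 4 fell after induction, where 14.7% of all loci tested fell. Polr1a, the largest catalytic subunit (GRCm38 chromosome 6, 71909053 to 71984935), measured 5.31 and 4.30 FPKM in induced samples, against 21.2 and 14.6 FPKM in uninduced samples. Its change was -1.69 ± 0.26 (limma adjusted p = 0.018). Polr1b, the second-largest subunit (chromosome 2, 129100995 to 129126594), measured 9.25 and 7.25 FPKM in induced samples, against 33.6 and 21.3 FPKM in uninduced samples (-1.60 ± 0.29, adjusted p = 0.0222). For both catalytic subunits the groups were well apart, although uninduced replicate 1 stood above uninduced replicate 2. Cd3eap, which with Polr1e forms a pair related to the yeast subunits A34.5 and A49 and to the polymerase II factor TFIIF, lies on chromosome 7 (19356014 to 19359483). It measured 3.82 and 3.32 FPKM in induced samples, against 13.5 and 15.5 FPKM in uninduced samples (-1.76 ± 0.21, adjusted p = 0.0128). Its partner Polr1e (chromosome 4, 45018583 to 45036565) measured 9.40 and 6.98 FPKM in induced samples, against 25.4 and 20.7 FPKM in uninduced samples (-1.39 ± 0.24, adjusted p = 0.0203). Cd3eap overlaps the DNA repair gene Ercc1 on the opposite strand over 106 exonic bases. Gm26628 covers 185 exonic bases of Polr1a on the opposite strand. Whether reads were assigned by strand was not given. With any 1 of the 4 samples left out, none of these 4 genes was called.

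The remaining polymerase I subunits did not pass. Twistnb, related to the yeast stalk subunit A43 that meets Rrn3, measured 11.9 and 6.93 FPKM in induced samples, against 15.9 and 10.7 FPKM in uninduced samples, with overlapping groups (95% interval of the log2 change -1.33 to 0.39). Znrd1, a small subunit related to yeast A12.2, which acts in RNA cleavage, was nearly constant within groups, at 10.99 and 11.07 FPKM in induced samples against 13.7 and 13.7 FPKM in uninduced samples (interval -0.77 to 0.19). Mean levels of the 6 subunits spanned 3.57 to 11.03 FPKM in induced cells and 13.3 to 27.5 FPKM in uninduced cells. Replicate 2 was under replicate 1 for 5 of the 6 in the induced samples and for 5 of the 6 in the uninduced samples, where 46.3% and 56.7% of all loci tested were.

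Of the 7 polymerase I factors 2 fell, where 14.7% of all loci tested fell. Of the 7, 6 had both induced values under both uninduced values, where 34.7% of all loci tested did. Mybbp1a, a nucleolar Myb-binding protein with roles in ribosomal RNA synthesis and processing (chromosome 11, 72441355 to 72451768), measured 18.3 and 13.2 FPKM in induced samples, against 95.8 and 105 FPKM in uninduced samples. At -2.61 ± 0.23 (adjusted p = 0.00966) it had the largest change of the 39 genes, 15.7% of the uninduced mean. Its neighbour Spns2 covers 131 of its exonic bases on the opposite strand. Tcof1, which encodes treacle, a nucleolar partner of UBF and polymerase I (chromosome 18, 60813755 to 60848971), measured 2.39 and 1.63 FPKM in induced samples, against 12.7 and 10.4 FPKM in uninduced samples (-2.06 ± 0.24, adjusted p = 0.0128). Both genes were separated between groups by several times the spread within them. Of the pair, Mybbp1a was still called without DMSO-induced replicate 1, and neither was called without any other sample.

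The factors that assemble on the ribosomal DNA promoter did not pass. Ubtf encodes UBF, the HMG-box protein that coats active ribosomal genes, and measured 35.4 and 42.5 FPKM in induced samples, against 59.8 and 52.8 FPKM in uninduced samples (-0.52 ± 0.20, adjusted p = 0.112), with separate groups and an induced mean at 69.2% of the uninduced one. Rrn3, which makes polymerase I competent for initiation, measured 35.8 and 39.4 FPKM in induced samples, against 51.5 and 42.2 FPKM in uninduced samples (-0.31 ± 0.20, adjusted p = 0.297). Taf1a, Taf1b and Taf1c encode subunits of the selectivity factor SL1, which also contains the TATA-binding protein. Their log2 changes were 0.04, -0.23 and -0.47 (adjusted p 0.927, 0.4 and 0.189), at mean levels of 2.25, 11.5 and 5.77 FPKM in induced cells and 2.25, 13.6 and 8.40 FPKM in uninduced cells. The sign for Taf1a turned under median-of-ratios scaling and without DMSO-induced replicate 1 or uninduced replicate 2. Dnaaf1 covers 584 exonic bases of Taf1c on the opposite strand. The locus of Taf1d, the remaining SL1 subunit, was shared with 5 other symbols, 4 of them snoRNA genes in GENCODE, and stood at 897 and 1432 FPKM in induced samples, against 353 and 405 FPKM in uninduced samples (1.58 ± 0.31, adjusted p = 0.0259). That rise belongs to the whole locus, cannot be assigned to Taf1d, and was not called when any 1 sample was left out.

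**Figure D2:**
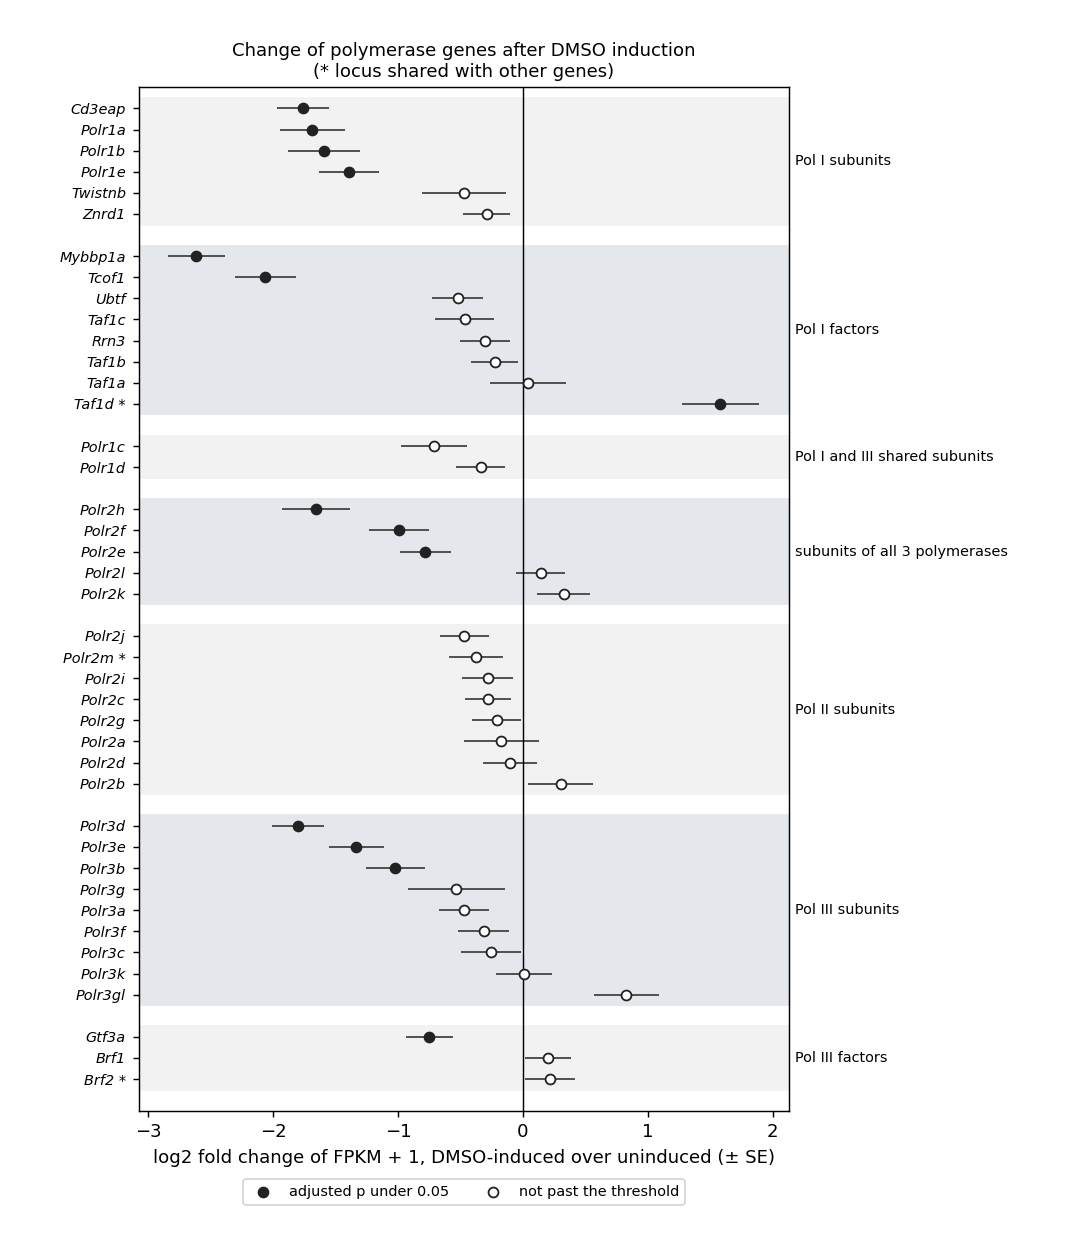
Log2 fold change of FPKM + 1 in DMSO-induced over uninduced samples with its SE, for each gene reported here by class; filled points had a limma adjusted p under 0.05. The filled points lie left of 0, from -2.61 for Mybbp1a to -0.75 for Gtf3a, apart from the shared Taf1d locus at 1.58, and the polymerase II subunits have none.

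Of the 7 subunits shared between enzymes 3 fell, where 14.7% of all loci tested fell. The 7 covered a wide range of levels. Polr1c and Polr1d form the pair on which polymerases I and III are assembled. Polr1c measured 80.9 and 91.8 FPKM in induced samples, against 116 and 174 FPKM in uninduced samples (-0.71 ± 0.26, adjusted p = 0.102). Polr1d measured 221 and 221 FPKM in induced samples, against 291 and 269 FPKM in uninduced samples (-0.34 ± 0.20, adjusted p = 0.244). Both had induced values under both uninduced values, where 34.7% of all loci tested did, but neither passed.

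Of the 5 subunits common to all enzymes, 3 fell, where 14.7% of all loci tested fell. Polr2h, the RPB8 subunit (chromosome 16, 20717665 to 20722267), measured 34.7 and 21.9 FPKM in induced samples, against 96.6 and 82.4 FPKM in uninduced samples (-1.66 ± 0.28, adjusted p = 0.0196). Polr2f, the RPB6 subunit (chromosome 15, 79141009 to 79151774), measured 118 and 94.4 FPKM in induced samples, against 239 and 186 FPKM in uninduced samples (-0.99 ± 0.24, adjusted p = 0.0398). Polr2e, the RPB5 subunit at the DNA-entry jaw (chromosome 10, 80035949 to 80039795), measured 41.9 and 49.0 FPKM in induced samples, against 86.2 and 71.5 FPKM in uninduced samples (-0.78 ± 0.21, adjusted p = 0.049). Genes on the opposite strand cover 9.4% of the exonic bases of Polr2f and 5.4% of Polr2h. The zinc-binding subunits were not called, and their difference from the other 3 was not tested. Polr2l, the RPB10 subunit, measured 57.9 and 67.4 FPKM in induced samples, against 60.3 and 52.9 FPKM in uninduced samples (interval -0.36 to 0.65). Polr2k, the RPB12 subunit, measured 18.0 and 19.98 FPKM in induced samples, against 16.8 and 13.3 FPKM in uninduced samples (interval -0.22 to 0.87). Polr2f and Polr2e lost their calls under quantile scaling (adjusted p = 0.0745 and 0.0863) and under scaling by sums that leave out globins and other abundant loci (0.0744 and 0.0935), and Polr2e did so with a pseudocount of 0.1 (0.0526). Without DMSO-induced replicate 1 only Polr2h was still called (0.0496), and without any other sample none of the 3 was.

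None of the 7 subunits particular to polymerase II was called, at log2 changes of -0.47 to 0.30, where 26.2% of all loci tested were called. With only 7 genes, an absence of calls is not far from that share. Of the 7, 4 (Polr2j, Polr2c, Polr2i and Polr2g) had both induced values under both uninduced values, where 34.7% of all loci tested did. Polr2a, the largest subunit, whose C-terminal repeats carry the phosphorylation marks of the transcription cycle (chromosome 11, 69733997 to 69758637), measured 3.95 and 2.10 FPKM in induced samples, against 3.81 and 3.06 FPKM in uninduced samples. The groups overlapped and the 95% interval of the log2 change ran from -0.94 to 0.59. Polr2b, the second-largest subunit (chromosome 5, 77310147 to 77349324), measured 82.6 and 69.7 FPKM in induced samples, against 74.6 and 50.5 FPKM in uninduced samples (interval -0.36 to 0.97), again with overlap. The 2 catalytic subunits thus stood at unlike levels per length, Polr2a at a mean of 3.03 FPKM and Polr2b at 76.1 FPKM in induced cells. Polr2a had the lowest mean of its class in both groups. Whether this gap lies in the transcripts or in how the locus was quantified was not tested.

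Polr2j, which pairs with Polr2c in the assembly of the enzyme, was the most abundant of the class, at 145 and 131 FPKM in induced samples against 198 and 183 FPKM in uninduced samples (-0.47 ± 0.19, adjusted p = 0.13). Its groups did not overlap, yet it did not pass. Polr2c, Polr2i, Polr2g and Polr2d, the last pair being the stalk, had log2 changes of -0.28, -0.28, -0.21 and -0.11 (adjusted p 0.293, 0.343, 0.441 and 0.733). Polr2g and Polr2d turned to a positive sign under quantile scaling. Genes on the opposite strand cover 26.8% of the exonic bases of Polr2i, 18.1% of Polr2c and 15.9% of Polr2j. The locus of Polr2m, which encodes the polymerase II-associated protein Gdown1, was shared with Gcom1 and Myzap and measured 58.6 and 56.3 FPKM in induced samples, against 85.5 and 65.5 FPKM in uninduced samples (adjusted p = 0.236).

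Of the 10 polymerase III subunits 4 fell, where 14.7% of all loci tested fell. Of the 10, 6 had both induced values under both uninduced values, where 34.7% of all loci tested did. Another 1 had both above, where 36.1% did. The 4 include both members of the TFIIF-like pair. Polr3d, of that pair (chromosome 14, 70438757 to 70443447), measured 3.10 and 2.58 FPKM in induced samples, against 12.0 and 12.6 FPKM in uninduced samples (-1.80 ± 0.21, adjusted p = 0.0128). Its partner Polr3e (chromosome 7, 120917744 to 120947432) measured 5.57 and 4.33 FPKM in induced samples, against 13.3 and 14.6 FPKM in uninduced samples (-1.33 ± 0.22, adjusted p = 0.0192). Both genes had separate groups, and neither they nor Polr3b, described next, were called with any 1 sample left out.

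The catalytic subunits of polymerase III differed in their calls, though the difference between them was not tested. Polr3b, the second-largest subunit (chromosome 10, 84622292 to 84727178), measured 5.75 and 4.40 FPKM in induced samples, against 12.3 and 10.3 FPKM in uninduced samples (-1.02 ± 0.23, adjusted p = 0.0349). It lost its call under scaling by sums that leave out globins and other abundant loci (adjusted p = 0.0607). Gm17249 covers 4.7% of the exonic bases of Polr3b on the opposite strand. Polr3a, the largest subunit (chromosome 14, 24448696 to 24487058), measured 6.17 and 6.18 FPKM in induced samples, against 9.42 and 8.49 FPKM in uninduced samples (-0.47 ± 0.20, adjusted p = 0.137). Both catalytic subunits had both induced values under both uninduced values, where 34.7% of all loci tested did.

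Polymerase III takes either Polr3g, known as the form of proliferating and embryonic cells, or its paralogue Polr3gl, the form of most differentiated tissues, in its initiation subcomplex. Polr3gl (chromosome 3, 96577872 to 96594181) measured 41.1 and 63.1 FPKM in induced samples, against 26.8 and 29.8 FPKM in uninduced samples (0.83 ± 0.26, adjusted p = 0.074). It passed under quantile scaling (adjusted p = 0.0462). Polr3g (chromosome 13, 81673843 to 81711013) measured 11.7 and 5.70 FPKM in induced samples, against 15.2 and 9.96 FPKM in uninduced samples (-0.53 ± 0.39, adjusted p = 0.341), with overlapping groups. The ratio of Polr3g to Polr3gl was 0.284 and 0.0903 in induced samples, against 0.569 and 0.335 in uninduced samples. Both induced ratios were under both uninduced ones, by a log2 difference of -1.36 (exact permutation test, two-sided, p = 0.33; a design of 2 against 2 cannot go lower). That difference was -2.13 without DMSO-induced replicate 1 and -0.60 without DMSO-induced replicate 2. In every sample Polr3gl stood above Polr3g.

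Polr3c, the most abundant polymerase III subunit in uninduced cells, and Polr3f join Polr3g or Polr3gl in that subcomplex. Polr3c measured 34.6 and 39.8 FPKM in induced samples, against 37.5 and 52.7 FPKM in uninduced samples (interval -0.87 to 0.36). Polr3f measured 9.93 and 9.26 FPKM in induced samples, against 13.3 and 11.2 FPKM in uninduced samples (interval -0.84 to 0.21). Polr3k, the small subunit for RNA cleavage and termination, measured 15.6 and 15.7 FPKM in induced samples, against 18.1 and 13.3 FPKM in uninduced samples (interval -0.57 to 0.58). The groups overlapped for Polr3c and Polr3k. Polr3f had both induced values under both uninduced values, where 34.7% of all loci tested did.

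**Figure D3:**
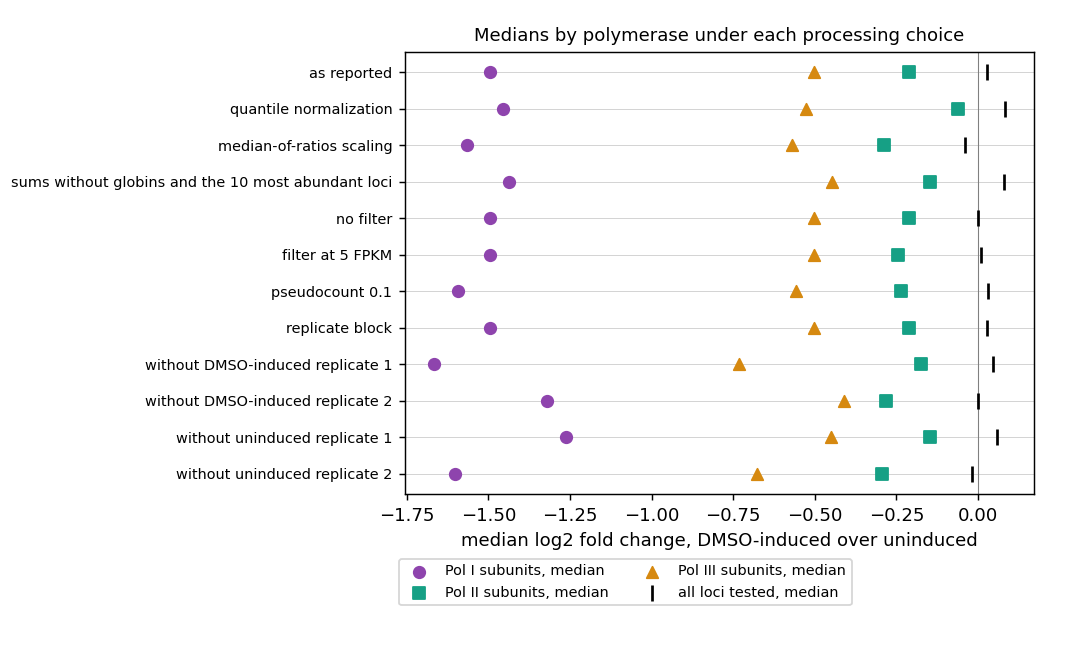
Median log2 fold change of FPKM + 1 in DMSO-induced over uninduced samples by class, as computed for the report and under each alternative processing. The polymerase I subunits stay between -1.67 and -1.26 and the polymerase II subunits between -0.30 and -0.06.

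Gtf3a encodes TFIIIA, which recruits polymerase III to 5S ribosomal RNA genes (chromosome 5, 146948657 to 146955614). It measured 36.7 and 37.6 FPKM in induced samples, against 58.7 and 68.1 FPKM in uninduced samples (-0.75 ± 0.19, adjusted p = 0.0436). Mtif3 covers 59.1% of its exonic bases on the opposite strand, so reads of the pair may be mixed and the fall is uncertain as to gene. The call was lost under quantile scaling (0.0834), under scaling by sums that leave out globins and other abundant loci (0.0691) and with any 1 sample left out. Brf1, the TFIIIB subunit used at transfer RNA genes, measured 43.5 and 48.2 FPKM in induced samples, against 40.7 and 38.7 FPKM in uninduced samples (interval -0.27 to 0.67). The locus of Brf2, the TFIIIB subunit of U6-type promoters, was shared with Rab11fip1 and measured 12.4 and 10.8 FPKM in induced samples, against 10.3 and 9.36 FPKM in uninduced samples (adjusted p = 0.451).

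The ratios given here between catalytic subunits of different enzymes were lower in induced samples. These ratios were chosen after the values were seen and carry no test. Polr1b to Polr2b was 0.112 and 0.104 in induced samples, against 0.451 and 0.422 in uninduced samples. Polr3b to Polr2b was 0.0696 and 0.0632 in induced samples, against 0.165 and 0.203 in uninduced samples. Polr1a to Polr3a was 0.861 and 0.696 in induced samples, against 2.25 and 1.72 in uninduced samples. In each of these ratios both induced samples lay under both uninduced samples. That does not hold for every pair. Polr3a measured 6.17 and 6.18 FPKM in induced samples, where Polr2a measured 3.95 and 2.10 FPKM. In uninduced samples Polr3a measured 9.42 and 8.49 FPKM and Polr2a 3.81 and 3.06 FPKM, so the ratio of this pair overlapped between groups.

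**Figure D4:**
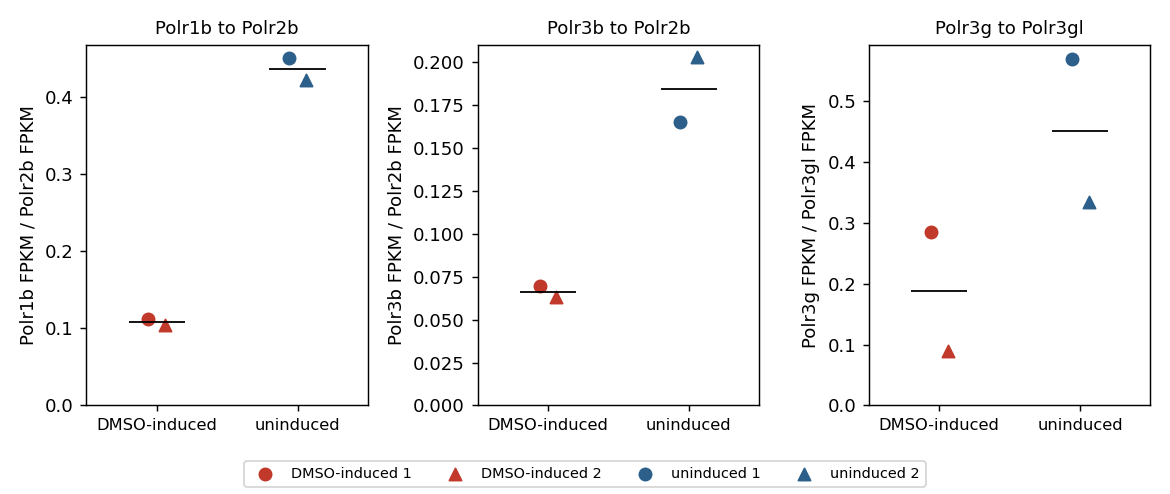
Ratios of FPKM between pairs of subunits in each sample, on linear axes from 0, DMSO-induced left of uninduced, with black lines at the group means. For Polr1b to Polr2b the induced samples sit at 0.112 and 0.104 and the uninduced samples at 0.451 and 0.422.

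Other genes of the same pathways were counted from lists that exclude the genes above, and their counts are to be read beside the 14.7% of all loci tested that fell and the 11.5% that rose. Among 7 other polymerase I factors tested, 2 fell and none rose (limma), at a median log2 change of 0.50 that differs in sign from the calls. Nolc1, a nucleolar phosphoprotein that binds small nucleolar ribonucleoproteins, measured 24.3 and 18.2 FPKM in induced samples, against 120 and 104 FPKM in uninduced samples (-2.36 ± 0.22, adjusted p = 0.0106). The other was the RNA helicase Ddx21 (-1.99 ± 0.29, adjusted p = 0.0158), named after its value was seen. Npm1, the nucleolar protein nucleophosmin, measured 358 and 205 FPKM in induced samples, against 805 and 430 FPKM in uninduced samples (adjusted p = 0.113).

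Among 13 other polymerase III factors, Snapc4 fell (-1.09 ± 0.20, adjusted p = 0.023) and Snapc1 rose (0.90 ± 0.24, adjusted p = 0.0496), both subunits of the complex that binds small nuclear RNA promoters. At 1 of 13 each way these are smaller shares than the 14.7% and 11.5% of all loci tested. Maf1, the repressor of polymerase III, measured 109 and 115 FPKM in induced samples, against 78.7 and 101 FPKM in uninduced samples (adjusted p = 0.29). Bdp1, of TFIIIB, measured 7.02 and 5.15 FPKM in induced samples, against 6.14 and 2.95 FPKM in uninduced samples (adjusted p = 0.424). Tbp, used by all 3 enzymes, measured 13.5 and 17.0 FPKM in induced samples, against 17.4 and 12.9 FPKM in uninduced samples (adjusted p = 0.964). The groups overlapped for Bdp1 and Tbp. Maf1 had both induced values above both uninduced values, where 36.1% of all loci tested did.

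Of 31 polymerase II general factors 3 fell and 2 rose, which are smaller shares than the 14.7% and 11.5% of all loci tested. The extremes were Gtf2h4, a TFIIH subunit (-1.57 ± 0.24, adjusted p = 0.0176), and Taf9b, a TFIID-type subunit (1.56 ± 0.28, adjusted p = 0.0222). Of 21 pausing and elongation factors 1 fell, Ssrp1 of the histone chaperone FACT (-1.04 ± 0.20, adjusted p = 0.0254), and 1 rose, again smaller shares than over all loci. The gene that rose was Ell2, an elongation factor, at 49.7 and 57.4 FPKM in induced samples against 13.2 and 8.65 FPKM in uninduced samples (2.22 ± 0.26, adjusted p = 0.0128). Of 13 assembly and import factors 5 fell and none rose (limma), at a median of -0.57, where 14.7% of all loci tested fell and 11.5% rose. Ruvbl2, an ATPase of the chaperone complex that assembles polymerases, measured 69.4 and 53.1 FPKM in induced samples, against 217 and 225 FPKM in uninduced samples (-1.85 ± 0.22, adjusted p = 0.0128). The others, named after their values were seen, were its partner Ruvbl1, the GTPase Gpn1, Telo2 and Pfdn2, with log2 changes of -1.75, -1.46, -1.15 and -1.03. Of the 16 genes called among the 84 tested on these lists, 3 were still called without DMSO-induced replicate 1, and none was without any other sample or with no filter on low values.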

How the data were processed

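RNA from MEL cells was depleted of ribosomal RNA and sequenced (2 DMSO-induced and 2 uninduced samples). The authors deposited 1 table of FPKM per locus; reads were aligned to GRCm38 with TopHat2, per the submitters' processing notes, and its column names match Cufflinks output, per the file headers. Quantifier settings, strandedness and depth are not given in the sources used here, so no counting intervals could be given. The 12890 loci that reached 1 FPKM in 2 or more samples were tested on log2(FPKM + 1). The test was limma 3.58.1 (trend, R 4.3.3) over all 4 samples, with Benjamini-Hochberg adjustment over all of these loci and a threshold of 0.05. The fit was also run on simulated data with planted changes and spreads taken from the fit itself. That run does not bear on whether the calls reported here are right. Positions and overlaps came from GENCODE M21 on GRCm38, and promoter windows from RefSeq. Of the set, 1 gene and 1 promoter window are not reported here, though counts and medians include them. The other genes are named; full values go to those called, the catalytic subunits, Polr3g, Polr3gl and the most abundant uncalled genes of a class. From each pathway list the called genes with the largest rise and fall are named, with Tbp, Maf1, Bdp1 and Npm1. Genes and lists were chosen with earlier results of these data known. Alternatives were other scalings, filters and pseudocount, a replicate block, and leaving out each sample.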

Additional observations from a re-analysis of the deposited data

How the results depend on the processing

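All 14 changes called lower stayed negative under every alternative run, and the class medians kept their signs, at -1.67 to -1.26 for polymerase I subunits, -0.30 to -0.06 for polymerase II subunits and -0.73 to -0.41 for polymerase III subunits. With no filter on low values 220 loci were called in place of 3377. Called were 0 of the 39 genes, 0 polymerase I subunits, 0 polymerase III subunits and 0 genes of polymerase I subunits and factors. This fit tests more loci and also estimates its variance trend from them, so the p-values themselves change. In limma the adjusted p of Polr1b went from 0.0222 to 0.249 and that of Znrd1 from 0.29 to 0.207. Leaving out 1 sample, where the lone sample is assumed to vary like the other group, left 14 to 486 loci, 0 to 2 of the 39 genes, 0 to 1 of the 6 falling polymerase I subunits and factors, and 0 polymerase I and 0 polymerase III subunits. With fewer samples these fits have fewer degrees of freedom. Of the 14 calls, 11 held under quantile scaling, 14 under median-of-ratios scaling, 10 under scaling by sums that leave out globins and other abundant loci, 14 with a filter of 5 FPKM and 13 with a pseudocount of 0.1. The labels do not state that replicate numbers mark a shared batch, so the numbers were not taken to pair the samples. Whether they do is not settled here. Deviations of same-numbered samples correlated at 0.17 across loci. With the replicate number as a block 4238 loci were called, against 1472 with the numbers crossed, a fit added after seeing the data. With the replicate block 13 of the 39 genes fell, Polr2e was lost (limma adjusted p = 0.0547) and Polr3gl was called (0.0462). The depth behind each FPKM is unknown, which limits what can be said of low genes such as Polr2a, Taf1a and Tcof1.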
